A study of Mus musculus and Homo sapiens with 8 samples.

Results

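Osteoclasts grown with RANKL were compared with macrophages grown with M-CSF alone, across every gene of the mouse count table. The comparison used 6 of the 8 libraries of the series. The cells came from tibia marrow of wild-type C57BL/6 mice aged 6 weeks. The macrophage group held 3 libraries of marrow-derived macrophages kept in 50 ng/ml M-CSF, and the osteoclast group held 3 libraries of such macrophages kept in 50 ng/ml M-CSF to which RANKL was added at 100 ng/ml. Both groups therefore received M-CSF, and the added agent was RANKL. Whether the libraries of a group stem from different animals or different cultures is not stated in the labels, and a p-value therefore reflects the spread among these libraries alone, which may be technical in origin. RANKL and any difference in culture time, which the labels do not give, between the groups cannot be told apart. The libraries were made from whole cultures, in which fewer cells of a type and less RNA per cell cannot be told apart. The table listed 25668 genes, and 13247 of them had enough counts to be tested.

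Osteoclasts are multinucleated cells that dissolve bone. They form when M-CSF keeps macrophage precursors alive and RANKL, a cytokine of the TNF family, engages its receptor RANK on them, which drives fusion and a gene programme for acid and protease secretion. Macrophages grown in M-CSF alone stay mononuclear and are known for the uptake of debris and the making of complement and apolipoproteins.

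The labels were first checked against the markers of the osteoclast. Mmp9, a gelatinase, was at 1.66, 2.12 and 2.03 CPM (counts per TMM-scaled library size) in the macrophage libraries and at 8514, 8154 and 8764 CPM in the osteoclast libraries. Ctsk, the collagen-cutting cathepsin K, was at 7.13, 3.03 and 4.88 against 1827, 1768 and 1728 CPM, and Acp5, the tartrate-resistant acid phosphatase, at 2.99, 3.03 and 2.81 against 1431, 1324 and 1354 CPM. Calcr, the calcitonin receptor, had 0 counts in each macrophage library and 15.97, 15.9 and 14.1 CPM in the osteoclast libraries. For all 4 genes every osteoclast library lay above every macrophage library. The summed level of 10 osteoclast markers was 56.5 to 60.7 CPM in macrophages and 11773 to 12325 CPM in osteoclasts.

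Totals ran from 16743849 to 22587509 counts per library, and 3 counts in a single library corresponded to 0.130 to 0.178 CPM. For a gene with no count in a group, lower bounds of folds used 3 counts summed over the group as the floor. That floor was 0.0477 CPM for macrophages and 0.0543 CPM for osteoclasts. A pair of libraries stood apart from their group. Macrophage library 1 held 500.0 CPM summed over 15 stromal and osteoblast markers, against a lowest macrophage value of 15.8 CPM, and its fibronectin gene Fn1 was at 207 CPM against 5.37 and 5.94 CPM in the other macrophage libraries. The osteoclast libraries held 26.0 to 43.4 CPM over these markers. Of the 8 tested, 5 were called lower in osteoclasts and 1 higher. The higher one, Dcn, was at 9.24, 10.2 and 11.8 CPM in osteoclasts against 0.664, 0 and 0 CPM, and rose by 5.71 log2 (SE 0.499, adjusted p = 3.51e-07). In osteoclast library 2, 1.53% of counts fell on genes that overlap ribosomal RNA sequence, against 0.0251 to 0.105% in the other 5 libraries. Results that rest on either library are given with and without it. Over 9 neutrophil markers in the table the sum was 27.5 to 29.7 CPM in macrophages and 204.3 to 214 CPM in osteoclasts. Mmp8 and Lcn2 made up most of that difference, while Elane and Mpo, which define neutrophil precursors, and S100a9 were at 0.0594 CPM or less in every library. S100a8, the partner of S100a9, was at 0, 0.173 and 0.138 CPM in macrophages and 17.4, 17.7 and 15.9 CPM in osteoclasts and rose by 7.18 log2 (SE 0.253, adjusted p = 3.18e-11). Any part of neutrophils in these results was not tested. The B cell markers summed to 9.84 to 12.9 CPM in macrophages and 0.855 to 1.198 CPM in osteoclasts. Most of that difference was Ighm, the IgM heavy chain, at 11.2 against 0.472 CPM on average, which fell by 4.51 log2 (SE 0.234, adjusted p = 1.63e-09). Cd79a was at 0.281 against 0.324 CPM and Cd79b at 0.234 against 0.205 CPM. Ms4a1 had 4 counts in macrophages and 0 in osteoclasts. Kit, a receptor of mast cells and progenitors, went from 1.81 to 0.147 CPM and fell by 3.58 log2 (SE 0.434, adjusted p = 8.73e-06). The other mast cell and basophil markers in the table had few counts and differed in direction. Cpa3 had 11 counts in macrophages and 0 in osteoclasts, and Gata2 had 6 and 20. Of 10 macrophage markers 3 were called higher and 7 lower, and their sum, which Lyz2 led, was 22292 to 23196 CPM in macrophages and 42279.9 to 45331 CPM in osteoclasts. The 4 erythroid markers in the table summed to 0.476 CPM or less in each library.

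Most genes moved, and large changes were more often increases. Of the 13247 genes, 63.7% were called at an adjusted p below 0.05, 32.3% were called higher in osteoclasts and 31.4% lower (edgeR's quasi-likelihood test, two-sided, Benjamini-Hochberg adjustment over all genes tested). A difference of at least 1 log2 was called for 1238 genes upward (9.35%) and 875 downward (6.61%). At 2 log2 or more there were 625 higher genes (4.72%) and 279 lower (2.11%), at 3 log2 or more 380 (2.87%) and 115 (0.868%), and at 5 log2 or more 159 (1.2%) and 32 (0.242%). Among the genes changed by at least 5 log2 that reached 100 CPM in the higher group, 20 were higher and 2 lower. The ratio of higher to lower genes was thus larger among the larger changes. The groups did not overlap for 9021 genes (68.1%), so a lack of overlap, stated below for single genes, was the common case. With equal totals in place of TMM scaling the median gene shifts to -0.22 log2. The counts at 1 log2 then become 1023 higher and 1317 lower, so 43.7% of these calls are higher in place of 58.6%, and with library sizes taken without the most abundant genes the share is 50.7%.

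**Figure D1:**
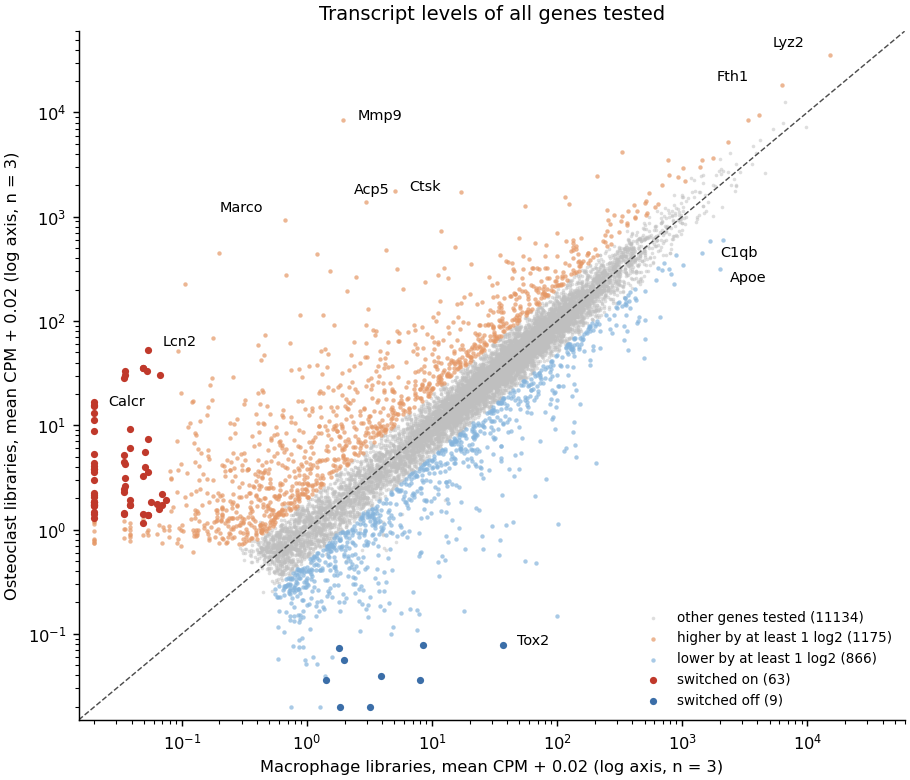
Mean level of each of the 13247 genes tested in macrophage (x axis) and osteoclast libraries (y axis), in CPM + 0.02 on log axes, n = 3 libraries a group; the dashed line marks equal levels. The 63 switched-on genes lie along the left edge and the 9 switched-off genes at the bottom, and Mmp9, Acp5, Ctsk and Marco stand far above the line while Apoe and C1qb lie below it.

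Genes near silence in one group and expressed in the other were counted by a fixed rule. A gene was taken as switched on if the 3 macrophage libraries together held at most 3 counts and each osteoclast library held at least 1 CPM, and as switched off by the same rule reversed. By this rule 63 genes were switched on, 55 of them protein-coding, and 9 were switched off, 8 of them protein-coding. The rule uses the contrast itself, so the lists are a description with no test. Of the switched-on genes, 26 had 0 counts in all macrophage libraries, and 2 of the switched-off genes had 0 in all osteoclast libraries. The osteoclast levels of the switched-on genes had a median of 2.98 CPM and reached 52.2 CPM, so this list holds genes of low and middle abundance.

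Secreted and signalling proteins formed one group of switched-on genes. Lcn2, which encodes the siderophore-binding lipocalin 2, had 2 counts over the macrophage libraries and 61.2, 49.5 and 46.0 CPM in osteoclasts, a ratio of 1631 (95% interval 451 to 13476). Intervals of such ratios cover counting error only. Stfa3, a stefin that inhibits cysteine proteases, had no macrophage count and 14.4, 14.9 and 18.1 CPM in osteoclasts, at least 334-fold higher. Stefin genes lie in a cluster of near-identical copies, so the split of reads among them is uncertain. Il1f9, an interleukin-1 family cytokine, had no macrophage count either and 10.8, 7.85 and 7.76 CPM. The complement factor Cfb was at 4.03 CPM, the granulocyte growth factor Csf3 at 2.29 CPM and the B cell chemokine Cxcl13 at 1.73 CPM on average in osteoclasts, against 0, 1 and 0 counts over the macrophage libraries. Every osteoclast library was above every macrophage library for these genes, as the rule requires.

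Receptors were a further group. Mst1r, the receptor tyrosine kinase of macrophage-stimulating protein, had 1 macrophage count and 31.8, 27.2 and 26.4 CPM in osteoclasts, a ratio of 1784 (95% interval 319.8 to 70522). Calcr was at least 319.8-fold higher. Gpr55, a receptor for lysophospholipids, went from 0 counts to 5.34 CPM, at least 112-fold. The collagen-binding integrin subunit Itga2 had 2 macrophage counts and 7.24, 8.86 and 6.04 CPM in osteoclasts. Il23r, Il12rb1, Grpr and Htr1b, receptors for interleukin-23, interleukin-12 and 23, bombesin-like peptides and serotonin, were at 1.71, 1.37, 1.36 and 1.70 CPM in osteoclasts. These 4 receptors were low in osteoclasts too.

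Enzymes and cytoskeletal proteins were among the higher members. Akr1c18, a steroid reductase that inactivates progesterone, had 2 macrophage counts and 37.9, 34.7 and 34.1 CPM in osteoclasts. Car2, a carbonic anhydrase whose protons acidify the resorption pit, had 1 macrophage count and 34.8, 33.2 and 30.8 CPM. Acpp, the prostatic acid phosphatase, had 3 macrophage counts and 27.1, 32.8 and 30.2 CPM, a ratio of 629 (95% interval 215 to 3053). Scin, the actin-severing protein scinderin, had 2 macrophage counts and 33.6, 34.5 and 31.0 CPM. The mitochondrial creatine kinase Ckmt1 was at 4.45 CPM, the cyclic nucleotide phosphodiesterase Pde10a at 5.13 CPM and the sphingosine kinase Sphk1 at 2.18 CPM, each with at most 3 macrophage counts. The metal-binding metallothionein Mt3 was at 31.1, 31.6 and 27.8 CPM and the metalloreductase Steap4 at 12.5, 10.3 and 10.9 CPM, with 1 and 0 macrophage counts.

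Genes best known from other tissues were also on the list. Cplx2, which regulates vesicle fusion at synapses, had no macrophage count and 17.2, 17.4 and 15.5 CPM in osteoclasts, at least 348-fold higher. Kbtbd11, a BTB and kelch domain protein, had 2 macrophage counts and 31.8, 38.4 and 36.4 CPM, and Rufy4, which acts on autophagosomes and lysosomes, 0 counts and 13.6, 13.3 and 12.6 CPM. Robo2, a receptor of the Slit guidance proteins, was at 2.42 CPM and the mesothelial surface protein Msln at 4.34 CPM. The transcription factor Gata3, best known from T cells, was at 1.91 CPM and the epithelial splicing regulator Esrp2 at 1.71 CPM. By the rule, none of these genes could overlap between the groups.

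The switched-off list was led by Tox2, an HMG-box transcription factor, at 35.5, 34.7 and 40.7 CPM in macrophages and 0.0570, 0.119 and 0 CPM in osteoclasts. Its ratio of macrophages to osteoclasts was 681 (95% interval 233 to 3306). Ctla2a, an inhibitor of cathepsin L-like proteases, was at 8.63, 7.97 and 8.85 against 0.0570, 0.119 and 0 CPM, and the organic anion transporter Slco2b1 at 8.24, 7.58 and 8.25 CPM with 1 osteoclast count. The potassium channel Kcnk12 was at 4.04, 4.16 and 3.46 CPM with 1 osteoclast count. Adrb1, the beta-1 adrenergic receptor, was at 1.22, 2.12 and 2.17 CPM with no osteoclast count, at least 34.6-fold higher in macrophages. Smpd3, a neutral sphingomyelinase, was at 1.604, 2.17 and 1.57 CPM in macrophages and had 3 osteoclast counts. Each macrophage library of these genes was above each osteoclast library, as the rule requires. Ramp1, an accessory protein that alters the ligand choice of the calcitonin receptor and its relative, was at 1.88, 1.86 and 2.17 CPM in macrophages and had 2 osteoclast counts, so Ramp1 met the rule for off in the libraries in which Calcr met the rule for on. The ninth entry, Gm45540, is a predicted gene.

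A pair of neighbouring urea transporter genes on chromosome 18 moved in opposite directions. Slc14a1 was at 1.27, 1.52 and 1.38 CPM in macrophages and had 1 osteoclast count, while Slc14a2 had 0 macrophage counts and was at 2.51, 2.08 and 2.11 CPM in osteoclasts. Both lie on the minus strand, Slc14a1 from base 78100091 to 78142119 and Slc14a2 from 78146148 to 78596942 (GRCm38), and the annotated spans do not overlap.

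Genes on either side of the thresholds had similar values. Just inside, the pseudogene Gm8941 had a lowest osteoclast value of 1.01 CPM with 0 macrophage counts, and just outside Prr16 had 0.958 CPM with 0. By counts, Acpp, Sphk1 and Gata3 were among those inside with 3 macrophage counts each, and Ephx2 and Hal were outside with 4 each. Among genes lost in osteoclasts, B3gnt7 stayed outside at a lowest macrophage value of 0.997 CPM. With off set at 0 counts the lists held 26 and 2 genes, with off at up to 10 counts 118 and 32, with on at 0.5 CPM 101 and 20, and with on at 5 CPM 17 and 3, so the switched-on list was the longer in each case. Leaving out macrophage library 1 gave 94 switched-on and 9 switched-off genes. The switched-off list held 14 genes without macrophage library 2, 15 without osteoclast library 1 and 16 without osteoclast library 3. A rule that must hold in fewer libraries is easier to meet.

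**Figure D2:**
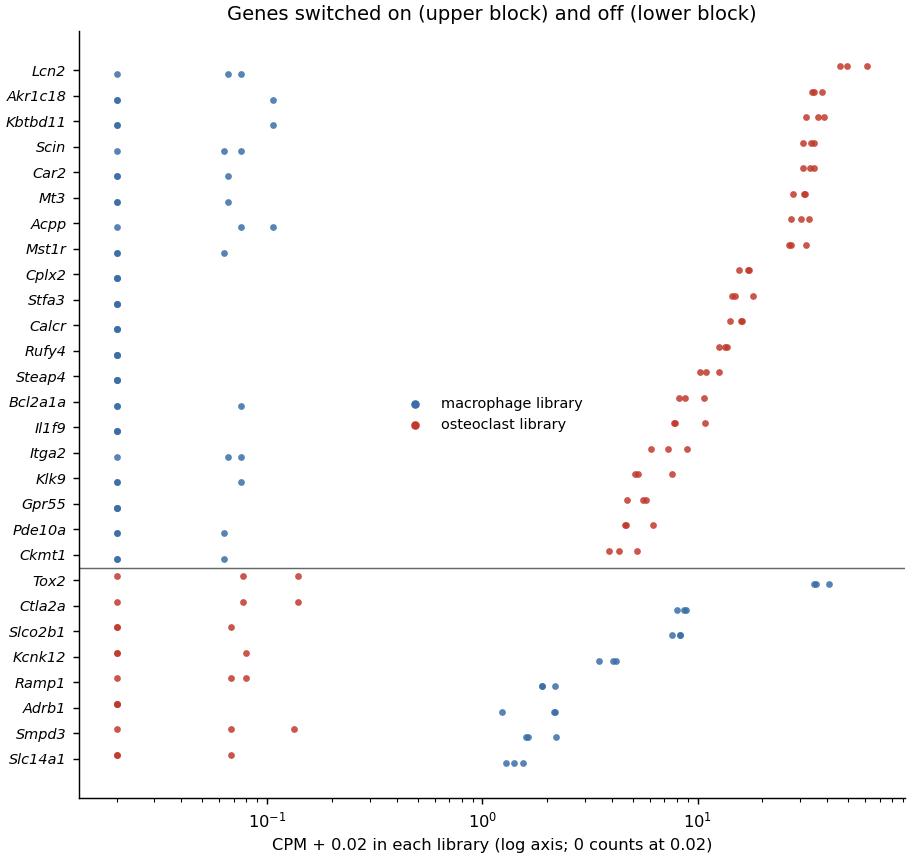
Level in each of the 6 libraries, in CPM + 0.02 on a log axis, of the 20 protein-coding switched-on genes with the highest osteoclast CPM (upper block) and of all 8 protein-coding switched-off genes (lower block); blue points are macrophage and red points osteoclast libraries. The groups do not overlap for any gene shown, as the rule requires, and points at 0.02 stand for 0 counts.

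Abundance ranks compare genes with each other and were therefore taken per length. Counts were divided by the longest annotated transcript and scaled to a fixed sum in each library (TPM) over 15847 protein-coding genes. Most of the top of the list was shared: 9 of the 10 highest genes and 75 of the 100 highest were the same in both groups. Lyz2, the gene of the bactericidal lysozyme M, ranked 1 in both groups, at 33855, 34095 and 34596 TPM in macrophages and 63436, 62361 and 63806 TPM in osteoclasts. Its level was higher in every osteoclast library, and its log2 change in the fit on counts was 1.22. The iron-storing ferritin heavy chain Fth1 moved from rank 5 to 2, and Spp1, the bone-binding secreted protein osteopontin, from 9 to 4. The cathepsin B gene Ctsb left the top 10, from rank 10 to 22.

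Mmp9 was the gene that entered the top 10, from rank 10439 in macrophages to rank 10 in osteoclasts. Its level was 1.58, 1.99 and 1.88 TPM in macrophages and 6279, 6252 and 6368 TPM in osteoclasts. In all, 11 genes entered the osteoclast top 200 from below macrophage rank 1000. Ctsk went from rank 8365 to 30 and Acp5 from 9231 to 41. Acod1, which makes itaconate, went from 6689 to 71, the monocyte-attracting chemokines Ccl2 from 1285 to 84 and Ccl7 from 4223 to 166. Marco, a scavenger receptor for particles, went from 10943 to 112 and Fpr1, the receptor for bacterial formyl peptides, from 10123 to 173. The complement protein C3 rose from rank 1457 to 114 and Pla2g7, the platelet-activating factor acetylhydrolase, from 7171 to 165. The 11th gene was Lars2, whose mean rests on osteoclast library 2: its level was 63.5, 2281 and 128 TPM in the osteoclast libraries. On counts it stood at 3.40 log2 with all libraries (adjusted p = 0.00927) and at 0.36 log2 (adjusted p = 0.417) without that library.

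The reverse path was rare. Only Plau, the urokinase that activates plasminogen, left the macrophage top 200 for a rank below 1000, from 155 to 1408, with 809, 834 and 896 TPM in macrophages and 108, 113 and 109 TPM in osteoclasts. The largest loss of level among the top 200 was that of Apoe, the lipid-carrying apolipoprotein E, at 4310.3, 4187 and 4345 against 439, 592 and 549 TPM. It went from rank 17 to 264. C1qb, C1qc and C1qa, the chains of the complement component that binds immune complexes, went from ranks 15, 20 and 36 to 93, 155 and 273. The groups did not overlap in the level of any of these 5 genes.

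**Figure D3:**
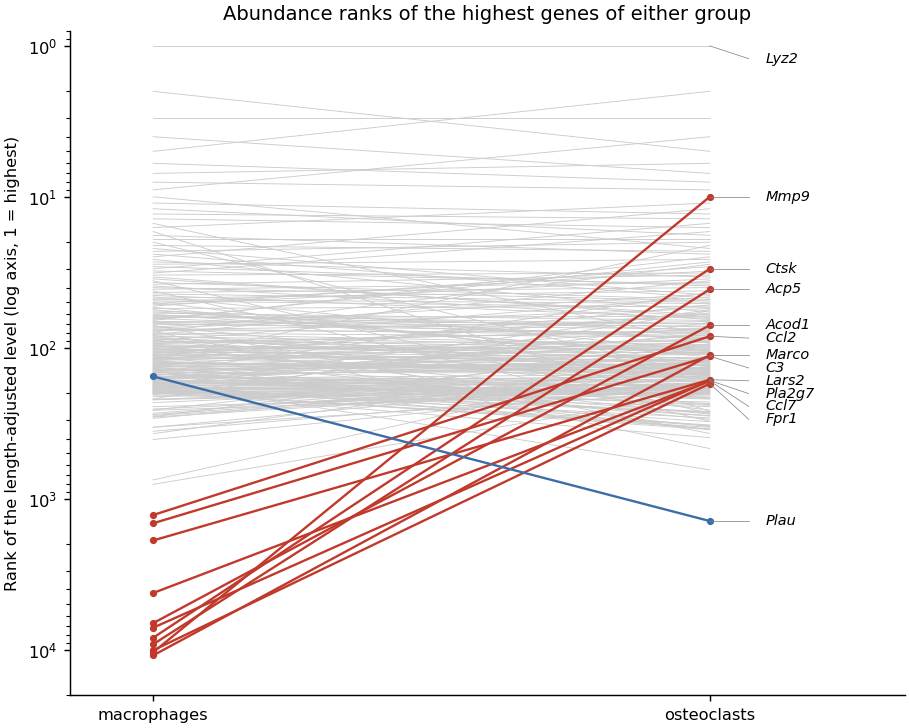
Rank of the length-adjusted level (log axis, 1 = highest) in macrophages and osteoclasts for the 238 protein-coding genes among the 200 highest of either group. Red lines are the 11 genes that entered the osteoclast top 200 from below rank 1000, the blue line is Plau, the one gene that left the macrophage top 200 for a rank below 1000, and grey lines are the other genes.

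The osteoclast libraries were also more concentrated on few genes. The 10 highest genes held 7.16 ± 0.139% of all counts in macrophages and 11.3 ± 0.120% in osteoclasts (mean ± SD, n = 3), and the 100 highest held 21.6 ± 0.225% and 27.6 ± 0.364%. It took 809 ± 12.0 genes to reach 50% of the counts in macrophages and 587 ± 6.66 in osteoclasts. The groups did not overlap in these 3 measures. An exact two-sided permutation test gave p = 0.1 for each, the smallest value that 3 against 3 libraries allow, and 0.125 after Benjamini-Hochberg adjustment over 5 measures. The number of genes at 1 CPM or more was 11759 ± 90.3 in macrophages and 11979 ± 136 in osteoclasts (exact permutation p = 0.1), so the osteoclast libraries did not list fewer genes.

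The change in counts was carried by few genes upward and many downward. Set as shares of the library, 18.4% of the counts moved from one set of genes to another between the group means, against 1.72 to 4.77% between libraries of one group. The increases added up to 50% with 45 genes, while the decreases took 432. Shares add up to a fixed sum, so a gene that keeps its level loses share when others rise. On this scale the median gene tested stood at -0.22 log2, and 14861 genes lost share against 10807 that gained. Adam8, at -0.13 log2 with TMM scaling, made 0.366% of the losses. How much of the spread of losses follows from the fixed sum was not tested. The 10 largest increases made 31.4% of all gains, and the 10 largest decreases 9.21% of all losses. Lyz2 alone made 8.92% of the gains, from 16249 to 32652 on a scale of CPM with equal totals. Fth1 made 5.52%, Mmp9 4.27%, the mitochondrially encoded oxidase subunit mt-Co1 2.48%, the transmembrane glycoprotein Gpnmb 2.33% and Spp1 2.25%. The ribosomal RNA-like entry CT010467.1 made 1.89%, and its difference was 3.66 log2 with all libraries and 0.33 log2 (adjusted p = 0.584) without osteoclast library 2. Next came Prdx1, a peroxide-reducing peroxiredoxin, at 1.32%, the glycolytic enzyme Pkm at 1.25% and C3 at 1.12%.

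The largest losses were Ctsb at 2.13% of all losses and the endocytic receptor Lrp1 at 1.39%. Apoe made 1.03%, the endocytic adaptor Dab2 0.931%, the lipoprotein lipase Lpl 0.682%, C1qb 0.682% and C1qc 0.622%. Dab2 was at 2169.6, 2067 and 2086 CPM in macrophages and 594, 597 and 616 CPM in osteoclasts and fell by 1.81 log2 (SE 0.0461, adjusted p = 1.13e-12). Lrp1 was at 4897, 4520.1 and 4485 against 2708, 2794 and 2416 CPM and fell by 0.81 log2 (SE 0.0566, adjusted p = 3.50e-08). Their libraries did not overlap between the groups. Summed by symbol stem, Mmp genes made 4.84% of the gains, Lrp genes 1.44% of the losses and the 380 Zfp genes 1.08% of the losses.

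**Figure D4:**
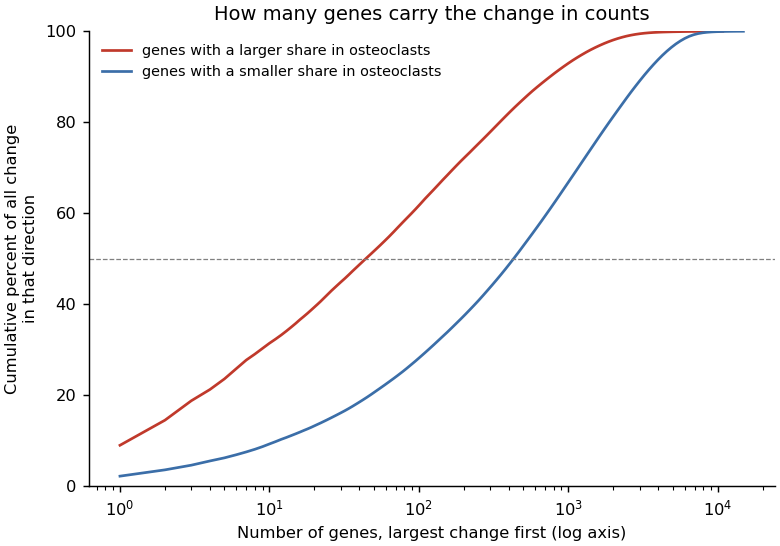
Cumulative percent of all gains (red) and of all losses (blue) in share of counts, over genes ordered from the largest change (x axis, log). The dashed line marks 50%, which the gains reached with 45 genes and the losses with 432.

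Gene families were compared by the letters that open their symbols. There were 212 such stems with at least 8 tested genes, holding 4361 genes. In 8 stems at least 50% of the tested members were called higher by at least 1 log2, and in 1 stem at least 50% were lower. The 6 leading stems upward were Mmp, Ccl, Cxcl, Serpinb, Gbp and Hist, and downward Rgs, Tnfsf, Mir, Col, Arhgap and Tspan. These stems were picked from the contrast and carry no test of their own. The order depends on the smallest stem admitted: with at least 5 tested genes Ceacam was the second stem upward and Nlrp and Ccr stood ahead of Rgs downward, and with at least 15 the Il and Pde stems led upward and Col downward. Members of a stem share sequence and often a genomic cluster, so they are not independent.

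Of 10 tested matrix metalloproteinase genes (Mmp), which cut collagens and other matrix proteins, 9 were called higher by at least 1 log2 and 0 lower, with a median of 2.75 log2. Mmp14, the membrane-bound collagenase that activates other family members, was at 7.36, 2.6005 and 2.81 CPM in macrophages and 476, 497 and 476 CPM in osteoclasts. The neutrophil collagenase Mmp8 was at 1.05, 1.39 and 1.57 against 109.9, 113 and 118 CPM, and rose by 6.39 log2 (SE 0.0955, adjusted p = 9.63e-15). Mmp12, the macrophage elastase, was at 135, 134 and 133 against 595, 581 and 627 CPM. The groups did not overlap for these 3 genes, although macrophage library 1, the one with stromal transcripts, was the highest macrophage library for Mmp14. Without it Mmp14 rose by 7.48 log2, against 6.89 with it. Mmp2 was at 4.92, 1.56 and 1.84 against 5.19, 6.00 and 5.17 CPM and rose by 1.01 log2 (SE 0.324, adjusted p = 0.0153). Without macrophage library 1 it rose by 1.68 log2 (adjusted p = 4.14e-06). Its call was lost without macrophage library 2 (adjusted p = 0.0747) or 3 (adjusted p = 0.0781).

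Chemokines were next. Of 12 Ccl genes 8 were higher by at least 1 log2 and 0 lower (median 2.69 log2), and of 9 Cxcl genes 6 were higher and 1 lower (median 2.66 log2). Cxcl3, a neutrophil attractant, was at 0.111, 0.130 and 0.230 CPM in macrophages and 72.9, 59.1 and 72.7 CPM in osteoclasts and rose by 8.69 log2 (SE 0.176, adjusted p = 1.35e-13). The monocyte and T cell attractants Ccl8 and Ccl5 went from 0.141 to 15.1 CPM and from 2.37 to 62.5 CPM. Ccl7 went from 12.5, 9.80 and 11.2 to 277, 269 and 291 CPM, with no overlap. Cxcl14, a chemokine of epithelia and macrophages, went the other way, from 105, 115 and 115 to 24.3, 24.4 and 22.6 CPM, and fell by 2.24 log2 (SE 0.0578, adjusted p = 1.26e-12).

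The clade B serpins (Serpinb), protease inhibitors that mostly act inside cells, split: of 11 genes 7 were higher by at least 1 log2 and 1 lower. Serpinb2, the plasminogen activator inhibitor 2, was at 2.49, 0.0867 and 0 CPM in macrophages and 94.9, 123 and 124 CPM in osteoclasts, a rise of 7.23 log2 (SE 0.404, adjusted p = 3.57e-09). Macrophage library 1 held most of its macrophage counts, and without that library the rise was 11.13 log2 (adjusted p = 2.10e-13). Serpinb8 was at 23.2, 22.9 and 22.9 against 140.3, 148 and 144 CPM, and Serpinb1c at 10.2, 10.4 and 10.6 against 2.22, 1.78 and 1.96 CPM, so these members moved in opposite directions without overlap.

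Guanylate-binding proteins (Gbp), interferon-induced GTPases that attack vacuoles of microbes, also split, with 5 of 8 higher and 2 lower by at least 1 log2. Gbp2 was at 22.3, 24.8 and 24.6 against 89.3, 93.9 and 92.4 CPM and Gbp6 at 2.599, 2.08 and 2.26 against 15.9, 19.4 and 17.7 CPM, while Gbp8 was at 7.63, 8.75 and 7.88 against 0.912, 0.476 and 0.383 CPM and Gbp9 at 88.9 against 40.1 CPM on average. The genes are close copies of each other, and reads shared between them could have been split. The values of single members are therefore uncertain. Of 13 histone genes (Hist) with enough counts, out of 55 in the table, 8 were higher by at least 1 log2 and 0 lower. Hist1h4h was at 0.221, 0.260 and 0.276 against 1.43, 1.19 and 1.72 CPM and Hist1h2bc at 23.2, 22.6 and 27.6 against 53.3, 46.2 and 50.2 CPM. Most histone messages lack a poly(A) tail, and the sources used here do not give how RNA was selected for these libraries.

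Downward, the Rgs stem led with 6 of 12 genes lower by at least 1 log2 and 1 higher. Most are regulators of G protein signalling, which speed the shut-off of receptor-coupled G proteins. Rgs7bp, a binding partner of such a regulator, is not one itself, and without it 5 of 11 genes (45.5%) were lower. Rgs2 was at 172, 180.3 and 199.8 CPM in macrophages and 37.5, 45.5 and 42.9 CPM in osteoclasts and fell by 2.13 log2 (SE 0.0686, adjusted p = 1.16e-11). Rgs1 was at 82.1, 86.8 and 95.9 against 14.7, 16.3 and 17.4 CPM and Rgs10 at 122 against 30.7 CPM on average. Rgs11 was the member called higher by at least 1 log2, from 9.24 to 20.2 CPM. The groups did not overlap for Rgs1 and Rgs2, as for 68.1% of all genes tested.

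The Tnfsf, Tspan, Col and Mir stems had members in both directions. The Tnfsf stem, of TNF family ligands and the antisense entry Tnfsf13os, had 3 of 10 lower and 2 higher by at least 1 log2: Tnfsf8, the CD30 ligand, was at 11.7, 10.5 and 11.9 CPM in macrophages and 0.285, 0.297 and 0.431 CPM in osteoclasts, and Tnfsf4, the OX40 ligand, at 1.27, 1.95 and 1.94 against 9.29, 8.92 and 8.05 CPM. Tetraspanins (Tspan), membrane organisers, had 3 of 11 lower and 2 higher, among them Tspan7, which is known to shape the osteoclast podosome belt, at 0.830, 0.693 and 0.968 against 18.1, 17.7 and 15.1 CPM. The Col stem had 5 of 18 lower and 2 higher, and besides collagen genes it holds Col4a3bp, a ceramide transfer protein that was called in neither direction. Without macrophage library 1 it had 3 lower and 6 higher, and was no longer among the 6 leading stems downward. With all libraries the 2 higher ones were Col27a1, from 0.912 to 8.69 CPM, and Col19a1, from 0 to 1.82 CPM. Col4a1, a basement membrane chain, was at 37.4, 27.6 and 25.8 CPM in macrophages against 1.08, 1.31 and 0.766 CPM in osteoclasts, and its partner chain Col4a2 at 52.2, 41.0 and 42.2 against 3.99, 2.62 and 3.16 CPM, with no overlap. The calls of Col1a1 and Col1a2, the chains of bone collagen, rest on macrophage library 1, in which they were at 102 and 82.7 CPM, against at most 2.82 CPM in the other macrophage libraries. Their changes of -2.95 and -2.96 log2 (adjusted p = 0.0441 and 0.0435) turned to 1.19 and 1.13 log2 (adjusted p = 0.0314 and 0.0496) without that library. MicroRNA host and precursor entries (Mir) had 4 of 14 lower and 1 higher. Mir6236, the higher one, was at 6.22, 304 and 15.04 CPM in the osteoclast libraries and stood at 0.06 log2 (adjusted p = 0.908) without osteoclast library 2. With equal totals the Hist stem had 6 members higher by at least 1 log2 in place of 8, Mmp 8 in place of 9 and Serpinb 6 in place of 7. Rgs then had 0 higher in place of 1, Tnfsf 4 lower in place of 3 and Col 6 lower in place of 5. The counts of the Ccl, Cxcl, Gbp, Mir and Tspan stems at 1 log2 stayed the same.

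**Figure D5:**
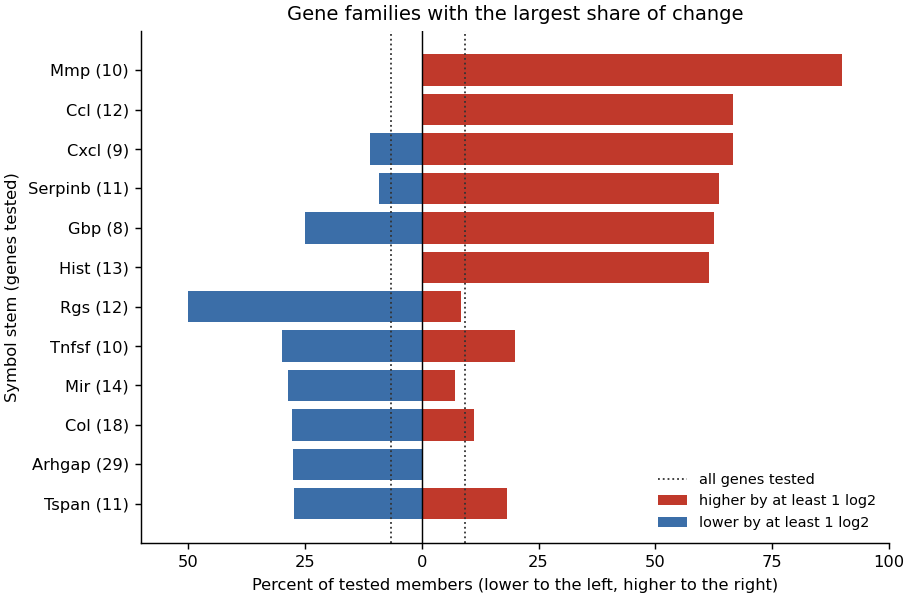
Percent of the tested members of each of 12 symbol stems that were called higher (red, to the right) or lower (blue, to the left) by at least 1 log2 in osteoclasts; the number tested stands in parentheses. The dotted lines mark the shares over all genes tested, 9.35% higher and 6.61% lower, which the Mmp stem exceeds at 90% higher and the Rgs stem at 50.0% lower.

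Some large classes defined by hand had small changes that lay mostly in one direction. Others did not: 18 of 58 Rab GTPases were called higher and 17 lower, and of 41 orphan and adhesion G protein-coupled receptors 17 were called higher and 17 lower. Of 86 cytoplasmic ribosomal protein genes 79 were called higher at any size and 0 lower, with a median of 0.37 log2, against a median of 0.00 over all genes. With equal totals, where the median of all genes is -0.22 log2, the class held 47 higher and 2 lower genes and a median of 0.15 log2. Of 49 proteasome genes 37 were higher and 3 lower (median 0.30 log2), and of 20 aminoacyl-tRNA synthetases, which load tRNAs with amino acids, 16 were higher and 1 lower (median 0.25 log2). Of 332 zinc finger genes, mostly DNA-binding factors, 34 were higher and 164 lower (median -0.28 log2). With equal totals the median was 0.08 log2 for the proteasome, 0.04 log2 for the synthetases and -0.49 log2 for the zinc finger genes. The counts were then 23 higher and 6 lower for the proteasome, 6 and 3 for the synthetases and 17 and 243 for the zinc finger genes. The background at any size was 32.3% higher and 31.4% lower.

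Among 10 CD300 genes, paired immune receptors that bind lipids, 1 was called higher and 7 lower at any size, against 32.3% and 31.4% over all genes. By at least 1 log2, 1 was higher and 5 were lower. Cd300a, an inhibitory member, was at 131, 134 and 127 CPM in macrophages and 52.3, 57.6 and 52.9 CPM in osteoclasts, whereas Cd300ld, its activating relative, was at 110.2, 111 and 114 against 299, 285 and 297 CPM. The groups did not overlap for either gene, as for 68.1% of all genes tested. Cd300ld was the 1 member called higher. Cd300ld3, Cd300ld4 and Cd300ld5, which are named alike, lay in a run of lower genes on chromosome 11, at -3.53 to -1.46 log2. Siglec15, a sialic acid lectin that is needed for osteoclast fusion, was at 0.111, 0.260 and 0.0461 against 12.9, 12.4 and 12.3 CPM and rose by 6.39 log2 (adjusted p = 8.69e-11). Of 216 solute carriers 31 were higher and 16 lower by at least 1 log2, or 14.4% and 7.41%, against 9.35% and 6.61% over all genes. With equal totals the counts were 26 and 22. The betaine and GABA transporter Slc6a12 was at 8.02, 10.1 and 8.48 against 238, 229 and 246 CPM, the dicarboxylate transporter Slc13a3 at 3.26, 2.56 and 3.04 against 92.3, 83.9 and 96.5 CPM and the zinc importer Slc39a4 at 6.47, 4.98 and 4.93 against 78.4, 73.2 and 76.1 CPM. Another zinc importer, Slc39a8, went from 42.2, 43.4 and 43.0 to 8.78, 8.62 and 9.10 CPM, so these importers moved in opposite directions. All 4 transporters kept the groups apart, as did 68.1% of all genes tested.

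Part of the change lay in runs of neighbouring genes. Along the 13197 tested genes with a position, there were 57 runs of at least 3 adjacent genes called higher by at least 1 log2 and 17 runs called lower, holding 204 and 57 genes. Runs of at least 4 genes numbered 25 and 4. The longest, on chromosome 5 from base 90490737 to 90905938, held Afp, Rassf6, Ppbp, Pf4, Cxcl3, Cxcl1 and Cxcl2. The platelet chemokine Ppbp in it was at 0.774, 0.650 and 0.415 CPM in macrophages against 4.56, 3.69 and 4.31 CPM in osteoclasts, and Pf4, platelet factor 4, at 43.1, 45.3 and 44.9 against 130.1, 127 and 139.9 CPM. These are also 2 of the 4 megakaryocyte markers, whose sum was 44.7 to 46.0 CPM in macrophages and 131 to 145 CPM in osteoclasts. The other markers were low in both groups, with Itga2b at 0.398 against 0.447 CPM and Gp9 at 0 against 0.0380 CPM on average, and a part of such cells in the result was not tested. A run on chromosome 9 from base 7272514 to 7581885 held Mmp13, Mmp12, Mmp10, Mmp8 and Mmp27, which rose by 2.17 to 6.39 log2. On chromosome 11, Myo1d was followed by Ccl2, Ccl7, Ccl12 and Ccl8. On chromosome 6 the lectin receptor genes Clec4a2, Clec4n, Clec4d and Clec4e rose by 1.79 to 5.79 log2.

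Further runs of higher genes lay on chromosomes 17, 12 and 14. On chromosome 17, Spaca6, Has1, Fpr1 and Fpr2 rose together, and Fpr2, a formyl peptide receptor, was at 4.09, 2.64 and 2.44 CPM in macrophages and 133, 126 and 131 CPM in osteoclasts. Jdp2, a basic leucine zipper factor that acts in osteoclast formation, lay in a run with Fos and Batf on chromosome 12 and was at 10.6, 11.0 and 10.6 against 107, 95.2 and 97.8 CPM. Acod1 lay beside Gm34643 on chromosome 14, and both rose, by 6.64 and 5.51 log2. Adjacent or overlapping genes can share reads where the counting ignores strand. The labels name a directional library kit, but the sources used here do not say whether the counting used strand. Among the lower runs, the 3 C1q chains lay side by side on chromosome 4, Rgs2, Rgs1 and Rgs18 on chromosome 1, and the folate receptor genes Folr2 and Folr1 on chromosome 7.

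The windows around the start sites of some genes of the Mmp and Cxcl runs are shown because these neighbours rose together. They span 250 bases before to 50 bases after the start, from RefSeq on GRCm38.p6, and all lie on the plus strand. Capitals mark GGGA and TTTCC parted by 1 base of any kind (the letters of a kappa-B site), TGANTCA (of an AP-1 site) and TATAAA (of a TATA box), searched on both strands. The 3 motifs were present in 0.385%, 7.93% and 14.2% of 27025 such windows.
Cxcl1 (chr5:90890995-90891294): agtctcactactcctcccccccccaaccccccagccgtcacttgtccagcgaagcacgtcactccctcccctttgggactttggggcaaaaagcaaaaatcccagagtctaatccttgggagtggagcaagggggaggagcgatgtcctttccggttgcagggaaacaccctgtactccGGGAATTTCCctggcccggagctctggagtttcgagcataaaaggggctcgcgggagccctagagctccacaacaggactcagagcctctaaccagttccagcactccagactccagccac
Cxcl2 (chr5:90903649-90903948): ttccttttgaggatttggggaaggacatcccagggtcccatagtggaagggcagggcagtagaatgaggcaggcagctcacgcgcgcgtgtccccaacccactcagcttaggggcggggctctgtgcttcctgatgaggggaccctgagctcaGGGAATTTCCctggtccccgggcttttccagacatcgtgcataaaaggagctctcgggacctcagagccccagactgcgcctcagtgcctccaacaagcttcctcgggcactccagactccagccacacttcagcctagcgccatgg
Cxcl3 (chr5:90785851-90786150): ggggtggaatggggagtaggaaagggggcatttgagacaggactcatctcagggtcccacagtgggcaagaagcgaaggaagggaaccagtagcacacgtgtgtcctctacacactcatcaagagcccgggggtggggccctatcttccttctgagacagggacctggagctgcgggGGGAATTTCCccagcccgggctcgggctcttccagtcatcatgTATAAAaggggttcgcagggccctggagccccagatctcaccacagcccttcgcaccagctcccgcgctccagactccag
Mmp13 (chr9:7272264-7272563): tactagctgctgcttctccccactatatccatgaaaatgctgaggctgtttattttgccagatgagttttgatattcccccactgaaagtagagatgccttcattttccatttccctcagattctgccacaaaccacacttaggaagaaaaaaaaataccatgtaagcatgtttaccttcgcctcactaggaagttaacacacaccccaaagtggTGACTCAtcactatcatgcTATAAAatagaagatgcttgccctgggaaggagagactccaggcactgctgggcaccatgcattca
Mmp10 (chr9:7502092-7502391): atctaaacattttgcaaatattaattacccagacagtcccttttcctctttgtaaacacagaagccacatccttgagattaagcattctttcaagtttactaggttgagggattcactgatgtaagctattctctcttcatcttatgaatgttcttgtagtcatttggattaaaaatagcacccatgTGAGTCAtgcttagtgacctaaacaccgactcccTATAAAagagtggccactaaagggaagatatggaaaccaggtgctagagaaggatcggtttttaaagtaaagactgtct
Mmp12 (chr9:7344147-7344446): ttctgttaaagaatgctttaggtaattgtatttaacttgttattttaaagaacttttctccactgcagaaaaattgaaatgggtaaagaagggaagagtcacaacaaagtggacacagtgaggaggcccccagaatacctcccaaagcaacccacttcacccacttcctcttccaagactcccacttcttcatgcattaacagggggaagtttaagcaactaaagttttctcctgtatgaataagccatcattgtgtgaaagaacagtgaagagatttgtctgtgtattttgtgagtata
Each of Cxcl1, Cxcl2 and Cxcl3 held the letters of a kappa-B site, with the first base 71, 97 and 73 bases before the start. Pf4, in the same run, held none of the 3 motifs, and Ppbp held TGANTCA and TATAAA. The windows of Afp and Rassf6, also in that run, were not looked at singly. In the Mmp run, Mmp13 and Mmp10 held TGANTCA at 35 and 63 bases before the start and TATAAA at 16 and 29 bases before it, while Mmp12 and Mmp27 held none of the 3. Mmp8 held TATAAA on the opposite strand only. Mmp3 lies between Mmp12 and Mmp10 but had too few counts to be tested. It held TGANTCA and TATAAA too, at 46 and 7 bases before the start. The match of letters is a description, and binding of any factor was not measured.

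Levels in the Cxcl run can be set beside these windows. Cxcl1 was at 0.387, 0.650 and 0.138 CPM in macrophages and 6.50, 6.42 and 6.75 CPM in osteoclasts, and rose by 4.03 log2 (SE 0.304, adjusted p = 8.03e-08). Cxcl2 was at 7.74, 8.62 and 6.404 against 49.0, 45.8 and 49.6 CPM and rose by 2.66 log2 (SE 0.0887, adjusted p = 1.68e-11). No macrophage library reached any osteoclast library for either gene. In the Mmp run, Mmp13 was at 7.80, 8.10 and 9.54 against 52.6, 53.3 and 61.2 CPM and Mmp10 at 0.221, 0 and 0.0921 against 0.684, 0.892 and 1.15 CPM, and Mmp27, without a match, was at 3.37, 2.90 and 3.36 against 19.9, 21.5 and 24.8 CPM.

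Some of the most abundant genes did not move by much. For 1967 genes (14.8% of those tested) the 95% interval of the change lay within 0.25 log2 of 0. Of these, 311 passed the test at that small size. Tmsb4x, an actin-monomer binder and the second most abundant macrophage gene per length, was at 3788, 3934 and 3969 CPM in macrophages and 4039, 3929 and 4179 CPM in osteoclasts, a change of 0.06 log2 (95% interval -0.03 to 0.14). The lysosomal membrane protein Lamp1 stood at 0.10 log2 (95% interval -0.01 to 0.21), the lysosomal carboxypeptidase Ctsa at -0.11 (-0.22 to 0.00) and the nuclear RNA Neat1 at -0.06 (-0.17 to 0.04). These values are relative to TMM scaling. With equal totals Tmsb4x, Ctss, Eif4g2 and Anxa1 turned to -0.16, -0.09, -0.07 and -0.12 log2, so their sign turned with the scale.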

How the data were processed

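Whole-number counts per gene were taken as deposited. The authors' table is named as normalized, but its values are whole counts with differing library totals, so it was treated as raw counts. The submitters' processing notes list the aligner STAR (2.6.0c), the read counter featureCounts (1.6.2) and 2 genome builds, hg19 and mm10, without saying which step or table each belongs to. The members and gene lists were chosen with earlier results of these data known.

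Genes with enough counts (edgeR filterByExpr) were tested with edgeR 4.0.16 (quasi-likelihood test, TMM scaling, no replicate block), with Benjamini-Hochberg adjustment over all 13247 genes. Alternatives used DESeq2 1.42.0, limma 3.58.1 and other scalings and filters. The limit of ranks to protein-coding genes, and the alternatives for runs, little-changed genes, hand lists and single genes that rest on 1 library, were chosen after seeing the data. The code was tested on simulated data. Symbols were matched to GENCODE M21 (GRCm38): 25462 of 25668 directly and 10 by synonym (99.2%), while 23 had been turned into dates. Promoter windows came from RefSeq.

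The rule for named genes took the 4 markers, the 15 highest switched-on and switched-off genes, the 15 highest genes per length in each group, the 8 largest gains and losses of level among the top 200, the 10 largest gains and losses of CPM, up to 4 members of each of the 6 leading stems in each direction, runs of at least 4 genes, and the 8 most abundant genes with little change. Other named genes (further switched-on genes, rank movers, stem and list members, runs of 3) were chosen after their values were seen. Same-numbered libraries correlated at 0.035, 0.038 and 0.096 in their deviations, so the numbers were not taken as pairs. At 3 against 3 libraries the smallest exact permutation p is 0.1. Some results for single genes and 1 gene family are not reported here.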

Additional observations from a re-analysis of the deposited data

How the results depend on the processing

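Scaling decided the balance of small changes. With equal totals 2625 genes were higher and 6445 lower (28.9% of calls higher, against 50.7%), and 1317 were lower by at least 1 log2. With library sizes without the most abundant genes, 3241 were higher and 5471 lower (37.2%). Without a filter 255 genes were higher and 63 lower by at least 5 log2. With the usual filter, 515 genes were lower when tested against 1 log2. Switched-on and switched-off genes numbered 26 and 2 with off at 0 counts, 118 and 32 with off at up to 10, 101 and 20 with on at 0.5 CPM, and 17 and 3 with on at 5 CPM. Leaving out 1 library gave 65 to 94 and 9 to 16. Without ribosomal RNA-like and mitochondrially encoded genes, 833 macrophage and 627 osteoclast genes held 50% of counts, the top 10 held 6.95% and 10.7%, and the top 100 held 21.1% and 26.5%. Lower runs numbered 37 with equal totals and 16 to 26 with 1 library left out (26 without osteoclast library 2). With equal totals the signs turned of the log2 of Tmsb4x (-0.16), log2 of Lgals3 (-0.014), log2 of Ctss (-0.094), log2 of Eif4g2 (-0.067) and log2 of Anxa1 (-0.12), and of Ctss (-0.0026) with library sizes without the most abundant genes. The cause of these shifts was not tested.

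With the replicate number as a block, 4237 genes were higher and 4114 lower, and not every library correlated best with its own number. Leaving out 1 library gave 3975 to 4367 higher and 3747 to 4151 lower genes. DESeq2 called 3941 and 3581. Of 222 named genes with a test, 206 kept direction and call in every alternative run. Genes with few counts are limited by depth: below 3 counts in a single library, 0.130 to 0.178 CPM, absence was not detectable.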

Other observations

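The share of genes called by at least 1 log2 varied with abundance. Of 85 genes with a mean of 1000 CPM or more, 18 were higher (21.2%) and 3 lower (3.53%), while between 10 and 100 CPM 5.35% were higher and 4.16% lower. By gene type, processed pseudogenes were higher in 9.64% and lower in 2.01%, and unconfirmed transcripts (annotated TEC) higher in 3.90% and lower in 13.4%, against 9.28% and 6.32% of protein-coding genes. On the X chromosome 6.24% of genes were higher and 9.59% lower. These shares were not tested.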
